A study of Homo sapiens with 4 samples.

Results

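CYBA and the genes of the NADPH oxidase subunits were followed in RNA-seq libraries of MDA-MB-453, a human breast cancer cell line. The 9 genes, CYBA, CYBB, NOX1, NOX4, NOX5, NOXA1, NOXO1, DUOX1 and DUOX2, were taken by symbol from a table of 48162 genes, and each matched 1 row. Libraries of wild-type cells (WT, n = 2) were set against libraries of cells in which TMEM9, a membrane protein of lysosomes, was knocked down (TMEM9 KD, n = 2). The sources used here name neither the agent nor the duration of the knockdown, and no label says whether replicate libraries are separate cultures. The question is which transcripts change when TMEM9 is lowered in this line. The members were selected on their measured levels in WT against TMEM9 KD, led by that of CYBA, so their values are given as a description with no test.

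NADPH oxidases carry electrons from NADPH across a membrane to oxygen and so make superoxide or hydrogen peroxide. The catalytic subunits CYBB (the phagocyte oxidase, also called NOX2), NOX1 and NOX4 need the small membrane partner encoded by CYBA for a stable complex, whereas NOX5, DUOX1 and DUOX2 are driven by calcium and do without it. NOXO1 and NOXA1 are the organiser and the activator of the NOX1 complex, and NCF1 is the organiser of the phagocyte complex. The phagocyte oxidase kills engulfed microbes, and the NOX and DUOX enzymes of epithelia serve signalling and host defence.

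TMEM9 checked the labels, with 74.9 and 83.3 CPM in WT 1 and WT 2 against 3.11 and 4.47 CPM in TMEM9 KD 1 and TMEM9 KD 2. CPM are counts scaled to 1000000 per library with TMM factors, and totals ran from 15323843 to 18517337 counts. The sample labels name this breast cancer line, whereas the series text calls the profiles retinal, and markers of the labelled line were present in part. The simple keratin gene KRT8 stood at 282 ± 13.1 CPM (mean ± SD) in WT and 269 ± 7.65 CPM in TMEM9 KD, and KRT18, its pairing partner, at 134 ± 2.83 and 183 ± 6.14 CPM. The luminal markers SPDEF, AGR2, KRT19 and TFF3 had at most 6 counts in a library, and FOXA1 stood at 2.83 ± 0.153 CPM in WT.

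Promoter windows of CYBA and NOX5 are shown because these were the members whose counts passed the low-count filter in WT only. Each is the 250 bases before the annotated start, 5′ to 3′, from RefSeq on GRCh38.p14. CYBA lies on the minus strand at chr16:88651054-88651303 and NOX5 on the plus strand at chr15:69014445-69014694. Capitals mark letters that match a GC box (GGGCGG) or an NF-kB pattern (GGG and CC with 5 bases of any kind between) on either strand.
CYBA: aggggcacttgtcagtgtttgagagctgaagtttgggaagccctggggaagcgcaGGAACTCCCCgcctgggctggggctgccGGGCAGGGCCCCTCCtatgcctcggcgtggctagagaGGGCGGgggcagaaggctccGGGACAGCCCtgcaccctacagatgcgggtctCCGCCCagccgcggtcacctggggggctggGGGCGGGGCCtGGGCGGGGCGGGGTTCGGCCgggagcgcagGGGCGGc
NOX5: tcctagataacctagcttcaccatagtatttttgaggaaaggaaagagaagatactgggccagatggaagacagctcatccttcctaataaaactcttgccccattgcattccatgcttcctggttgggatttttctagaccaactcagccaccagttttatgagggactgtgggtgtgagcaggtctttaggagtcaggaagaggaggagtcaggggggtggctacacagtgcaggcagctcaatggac
The CYBA stretch was 73.6% G and C with 18 CG dinucleotides, and the NOX5 stretch 48.4% with 0. The CYBA stretch held 6 GC boxes and 7 matches to the NF-kB pattern, some of which share letters, and the NOX5 stretch held neither. Over 35116 RefSeq windows of 300 bases, 45% held a GC box and 58.7% the NF-kB pattern. The median window was 58.67% G and C with 14 CG dinucleotides. The AP-1 pattern TGANTCA (7.71% of windows), the interferon gamma activated site TTCNNNGAA (7.66%) and the interferon-stimulated element (GAAA, 2 bases of any kind, GAAA; 3.57%) were in neither stretch. In the windows of 300 bases of the other members, GC boxes numbered 3 for NOXA1, 3 for DUOX1 and 1 in 1 of the 3 windows of NOX4, and the interferon-stimulated element was found only for CYBB, with 2 matches. In the same windows the NF-kB pattern had 4 matches for NOXA1, 2 for NOXO1, 2 for DUOX2, 1 for NOX1 and 1 for DUOX1. It also had 1 match in 1 of the 3 windows of NOX4. An interferon gamma activated site was found only for NOX4, with 1 match. These matches describe the sequence and are not binding sites.

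CYBA was the most abundant member in WT and close to the counting limit in TMEM9 KD. It encodes the shared membrane partner of the NOX1, CYBB and NOX4 complexes. CYBA (ENSG00000051523) had 667 and 807 counts in WT 1 and WT 2, or 44.6 and 44.9 CPM. In TMEM9 KD 1 and TMEM9 KD 2 it had 3 and 2 counts, or 0.183 and 0.115 CPM. The groups lay far apart, with an SD of 0.201 CPM in WT and 0.0485 CPM in TMEM9 KD. Summed over each group, the WT to TMEM9 KD ratio was 303 (exact 95% interval 129 to 934, for counting error only). The fitted log2 fold change of TMEM9 KD against WT was -8.17 (SE 0.245, back-calculated from the F statistic), and it ran from -8.51 without TMEM9 KD replicate 1 to -7.88 without TMEM9 KD replicate 2. In bulk RNA, fewer cells with a transcript and less transcript per cell cannot be told apart.

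**Figure D1:**
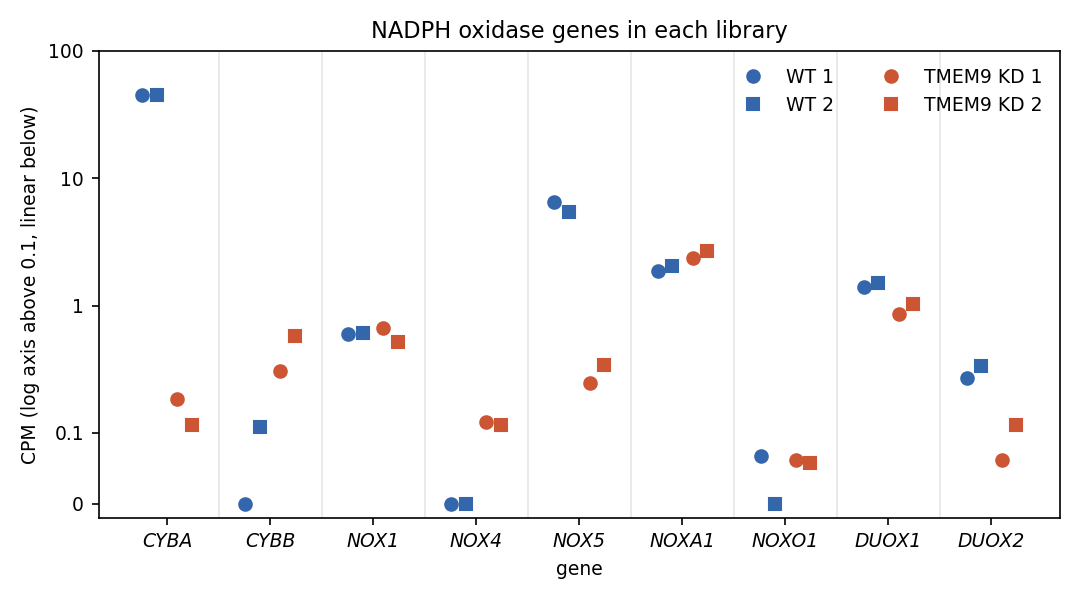
CPM of the 9 oxidase genes (y axis, logarithmic above 0.1 and linear below) in each WT (blue) and TMEM9 KD (orange) library, with circles for replicate 1 and squares for replicate 2. CYBA sits near 45 CPM in both WT libraries and below 0.2 CPM in both TMEM9 KD libraries, while NOX1 overlaps between the groups.

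The catalytic subunits that pair with CYBA were scarce in every library. NOX1 (ENSG00000007952), the oxidase best known from colon epithelium, had 9 and 11 counts in WT and 11 and 9 in TMEM9 KD. Its levels of 0.602 and 0.612 CPM in WT lay within the range of 0.516 to 0.672 CPM in TMEM9 KD. The ratio of TMEM9 KD to WT for NOX1 was 0.973 (exact 95% counting interval 0.497 to 1.91), so that differences within this interval were not detectable at this depth. CYBB (ENSG00000165168) had 0 and 2 counts in WT and 5 and 10 counts in TMEM9 KD. Both TMEM9 KD libraries of CYBB, at 0.305 and 0.573 CPM, were above the 0 and 0.111 CPM of WT, and the ratio of TMEM9 KD over WT was 7.3 (exact 95% counting interval 1.7 to 65.8). NOX4 (ENSG00000086991), a constitutively active form found in kidney and fibroblasts, had 0 counts in WT and 2 in each TMEM9 KD library. The exact 95% counting interval of its TMEM9 KD over WT ratio began at 0.643, so it includes equal levels, and no fold is given for NOX4.

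Of the calcium-driven oxidases, NOX5 differed most between the groups. NOX5 (ENSG00000255346) had 98 and 97 counts in WT, or 6.55 and 5.4 CPM, and 4 and 6 counts in TMEM9 KD, or 0.244 and 0.344 CPM. The groups of NOX5 did not overlap, and its log2 fold change was -4.30 (SE 0.395). The NOX5 model of GENCODE 29 shares exons with SPESP1, a sperm gene upstream, which itself had 0 counts in 3 libraries and 2 in TMEM9 KD 2, and it begins upstream of the RefSeq start used for the window above. The sources used here do not state how strand and overlaps were treated in counting, so reads from shared exons cannot be assigned. DUOX1 (ENSG00000137857), a dual oxidase of airway epithelium, had 21 and 27 counts in WT and 14 and 18 in TMEM9 KD. These were 1.4 and 1.5 CPM against 0.855 and 1.03 CPM, with no overlap and a log2 fold change of -0.62 (SE 0.44). DUOX2 (ENSG00000140279), the dual oxidase of thyroid and gut, had 4 and 6 counts in WT and 1 and 2 in TMEM9 KD. The WT to TMEM9 KD ratio of DUOX2 was 3.42 (counting interval 0.882 to 19.4), an interval that includes equal levels. DUOX1 and DUOX2 are alike in sequence, so that some reads may have been split or lost between them.

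The gene of the NOX1 activator did not share the CYBA pattern, and that of the organiser had too few counts to show one. NOXA1 (ENSG00000188747), the activator, had 28 and 37 counts in WT and 39 and 47 in TMEM9 KD, or 1.87 and 2.06 CPM against 2.38 and 2.69 CPM. Its TMEM9 KD libraries were both higher, with a log2 fold change of 0.36 (SE 0.327). NOXO1 (ENSG00000196408), the organiser, had 1 and 0 counts in WT and 1 and 1 in TMEM9 KD, and no ratio is given at this depth. Exons of NOXO1 overlap TBL3 on the opposite strand, which had 800 to 1341 counts in a library, and exons of NOXA1 overlap ENTPD8, which had at most 6.

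The low-count filter of 0.606 CPM (10 counts in the median library) used library totals without TMM factors, unlike the other CPM given here. On that scale NOX1 reached the filter in 1 library, TMEM9 KD 1, although its TMM-scaled level in WT 2 was 0.612 CPM. Of the 9 members, 4 passed the filter in at least 2 libraries, namely CYBA, NOX5, NOXA1 and DUOX1. CYBA and NOX5 passed only through the WT libraries. The TMEM9 KD libraries lay on one side of both WT libraries for all 4 of these, and for 77.6% of the 14923 genes tested. Nothing is read from this count, since the members were selected on this comparison. Of the 5 members under the filter, CYBB, NOX4 and DUOX2 did not overlap either, at few counts.

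Levels of different genes were set side by side per kb of exon, counted over all annotated transcripts of a gene. In WT, CYBA stood at 13.3 CPM per kb, followed by NOXA1 at 1.17, NOX5 at 0.478, NOX1 at 0.24 and DUOX1 at 0.165 CPM per kb. The ranges over the libraries did not overlap between neighbours down to DUOX2 (0.0306 CPM per kb), and those of DUOX2, NOXO1, CYBB and NOX4 did from one to the next. In TMEM9 KD the order was NOXA1 at 1.51, NOX1 at 0.235, DUOX1 at 0.107, CYBB at 0.0993 and CYBA at 0.0444 CPM per kb, with the ranges of DUOX1 and CYBB overlapping. CYBA thus went from the first to the fifth place among the members on this scale. Its place in TMEM9 KD rests on 3 and 2 counts. It also depends on the length used, 3.36 kb of exons over all its transcripts. The NOX5 model has 12.5 kb of exons over all its transcripts, part of them shared with SPESP1, which lowers its level per kb.

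Among genes that act with these subunits, most were lower in TMEM9 KD. Over all genes tested, edgeR called 57.7% (28.7% higher and 29% lower, adjusted p below 0.05), with a median log2 fold change of 0.01. Of 16 oxidase partner genes, 10 were tested, of which 8 fell and 1 rose, with a median of -0.56. RAC2, the Rac GTPase of the phagocyte oxidase, fell from 110 and 114 CPM in WT to 43.7 and 50.6 CPM in TMEM9 KD (log2 fold change -1.25, SE 0.0774, edgeR adjusted p = 5.33e-27). RAC1, the widely expressed GTPase that serves the NOX1 complex, had 633 and 652 CPM against 646 and 603 CPM, with overlapping groups (-0.04, SE 0.0528, edgeR adjusted p = 0.518). RAC3, a further Rac protein, fell from 7.88 ± 0.651 to 5.62 ± 0.087 CPM. RAC3 was not called by DESeq2 (adjusted p = 0.114), with library size as the only scaling (0.0516) or without WT replicate 2 (0.182).

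Genes of organisers related to that of the phagocyte complex were lower as well. SH3PXD2A, a scaffold of invadopodia related to the phagocyte organiser, fell from 82.9 and 69.8 CPM to 25 and 24.3 CPM (log2 fold change -1.63, SE 0.0913, edgeR adjusted p = 6.44e-30). Its relative SH3PXD2B fell from 142 ± 0.119 CPM in WT to 106 ± 8.15 CPM (log2 fold change -0.42). The organiser gene NCF1, which has near-identical pseudogenes that can take its reads, had at most 6 counts in a library.

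CYBC1, which encodes a chaperone for the CYBB and CYBA pair, fell from 60.4 and 60.5 CPM to 38.4 and 39.9 CPM (log2 fold change -0.62, SE 0.0858, edgeR adjusted p = 7.27e-10). The SD of CYBC1 was 0.0538 CPM in WT and 1.07 CPM in TMEM9 KD, both far less than the gap between groups. ARHGEF7, an exchange factor for Rac, fell from 54.8 ± 1.17 to 34.9 ± 1.74 CPM, and RAP1A, a GTPase found with the phagocyte cytochrome, from 72 ± 3.75 to 54.1 ± 5.5 CPM. POLDIP2, which binds the CYBA product and raises NOX4 activity, was the partner that rose, from 141 and 140 CPM to 192 and 192 CPM (log2 fold change 0.45, SE 0.063, edgeR adjusted p = 1.84e-09). The maturation factor genes DUOXA1 and DUOXA2, without which DUOX enzymes stay in the endoplasmic reticulum, had at most 2 counts in a library. NOX3, the oxidase of the inner ear, and NCF4 had at most 1 count, and HVCN1, a proton channel that balances the oxidase's charge, at most 12.

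**Figure D2:**
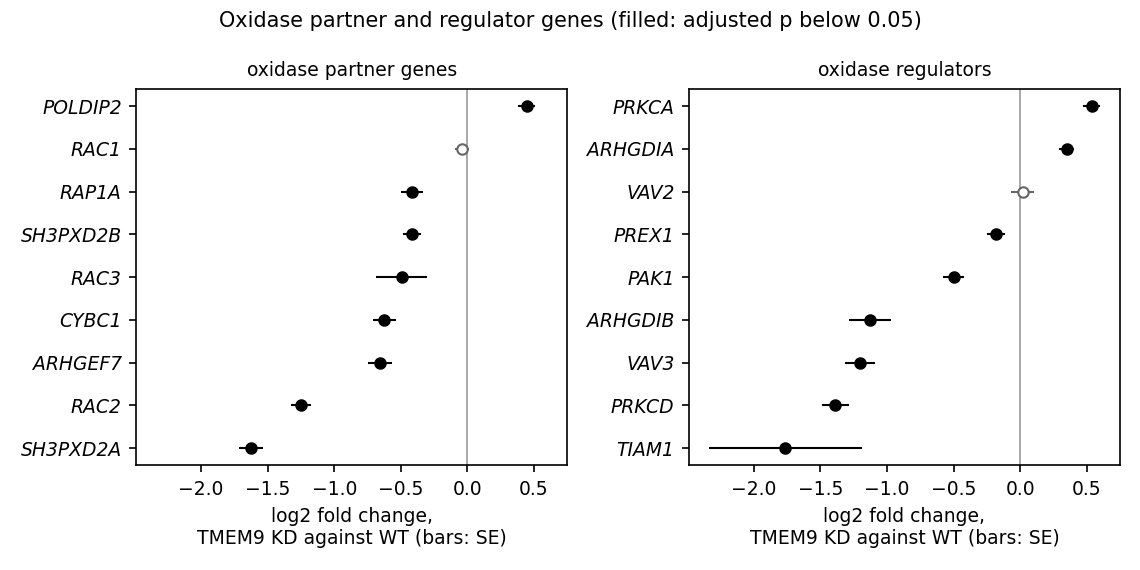
Log2 fold change of TMEM9 KD against WT (x axis, with SE bars) for oxidase partner genes (left) and regulator genes (right), with filled points for an edgeR adjusted p below 0.05. SH3PXD2A and RAC2 lie lowest among called partners, and POLDIP2 lies to the right of 0 at 0.45.

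Regulators of oxidase assembly went both ways. Of 12 kinases, exchange factors and Rac inhibitors, 9 were tested, of which 6 fell and 2 rose, with a median of -0.50. The shares over all genes tested were 29% lower and 28.7% higher. With DESeq2 and without WT replicate 2, 4 fell and 2 rose. PRKCD, a protein kinase C that phosphorylates the phagocyte organiser, stood at 53.6 ± 1.32 CPM in WT and fell to 20.4 ± 3.93 CPM (log2 fold change -1.39, SE 0.101, edgeR adjusted p = 1.26e-22). PRKCA, another protein kinase C, rose from 141 ± 2.85 to 204 ± 10.5 CPM, and was one of the 2 that rose, with ARHGDIA. VAV3, a Rac exchange factor, fell from 38.3 ± 1.37 to 16.6 ± 2.55 CPM, and ARHGDIB, an inhibitor of Rac-type GTPases known from blood cells, from 14.6 ± 0.515 to 6.65 ± 0.0754 CPM. TIAM1, also an exchange factor, went from 10 and 31 counts in WT to 10 and 2, and its call (log2 fold change -1.76, edgeR adjusted p = 0.00636) ended with DESeq2 (0.098), without WT replicate 2 (0.471) and without TMEM9 KD replicate 2 (0.224). PREX1, a further exchange factor, was 124 ± 2.07 CPM in WT and 109 ± 6.9 CPM in TMEM9 KD. Its call (log2 fold change -0.18, edgeR adjusted p = 0.0185) ended with DESeq2 (0.0503), with library size as the only scaling (0.174), without either WT library (0.12 and 0.209) and without TMEM9 KD replicate 1 (0.092).

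Genes that remove superoxide and peroxide showed a mixed pattern with large changes in a few. Of 18 genes, 16 were tested, of which 8 fell and 3 rose, with a median of -0.14. Over all genes tested, 29% fell and 28.7% rose. With library size as the only scaling, 4 fell and 3 rose, as also without WT replicate 1 and without WT replicate 2. SOD2, the mitochondrial superoxide dismutase, fell from 1417 and 1463 CPM in WT to 605 and 556 CPM in TMEM9 KD (log2 fold change -1.31, SE 0.0519, edgeR adjusted p = 4.83e-41). SOD3, the secreted dismutase, rose from 4.21 and 4 CPM to 18.3 and 18.6 CPM (2.17, SE 0.167, edgeR adjusted p = 3.6e-21). SOD1, the cytosolic form, was 200 ± 0.777 CPM in WT and 173 ± 1.15 CPM in TMEM9 KD, a small decrease whose call ended with library size as the only scaling (adjusted p = 0.0548) and without either WT library (0.0893 and 0.0776).

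CAT, the peroxisomal enzyme that splits hydrogen peroxide, had 168 and 161 CPM in WT and fell to 71.1 and 66.4 CPM (log2 fold change -1.26, SE 0.0697, edgeR adjusted p = 2.38e-30). GPX3, a secreted glutathione peroxidase, fell from 6.94 ± 0.731 to 2.39 ± 0.268 CPM. TXNRD1, thioredoxin reductase, rose from 592 ± 19.1 to 860 ± 32.2 CPM, and GPX1 rose by a log2 fold change of 0.27. Among the 6 peroxiredoxin genes, PRDX1 was 588 ± 15.9 and 592 ± 8.14 CPM, and PRDX2, PRDX4 and PRDX6 fell, with log2 fold changes of -0.21, -0.31 and -0.17. The calls of PRDX2 and PRDX6 ended with library size as the only scaling (adjusted p = 0.0865 and 0.162) and without either WT library. So did that of GPX8 (0.133). The log2 fold change of GPX8 was -0.19, and -0.087 without TMEM9 KD replicate 2. None of the 6 haem peroxidase genes, such as MPO and LPO, passed the filter, and PXDN had the most counts in a library, at 11.

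Enzymes that supply cytosolic NADPH, the electron donor of the oxidases, were lower in 4 of 8 and higher in 1, with a median of -0.17. Beside them, 29% of all genes tested were lower and 28.7% higher. ME1, malic enzyme, had 155 and 160 CPM in WT and fell to 111 and 98.7 CPM (log2 fold change -0.59, SE 0.0673, edgeR adjusted p = 1.12e-12), and PGD and TKT each fell by 0.28 on the log2 scale. MTHFD1, of folate metabolism, rose from 207 ± 0.963 to 258 ± 7.16 CPM.

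**Figure D3:**
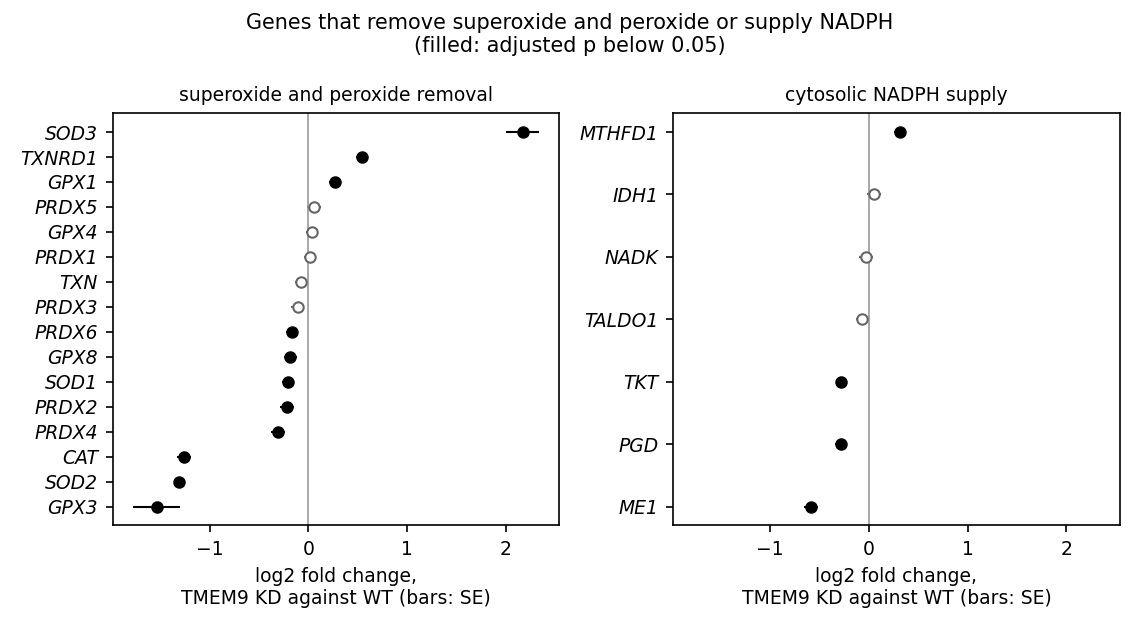
Log2 fold change of TMEM9 KD against WT (x axis, with SE bars) for genes that remove superoxide and peroxide (left) and that supply NADPH (right), with filled points for an edgeR adjusted p below 0.05. SOD3 lies at 2.17, and SOD2, CAT and GPX3 lie below -1.

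Genes beside CYBA on chromosome 16 were higher in TMEM9 KD. Of the 10 protein-coding genes on each side in the order of GENCODE 29, 15 were tested, of which 14 rose and 0 fell, where 28.7% of all genes tested rose, and their median log2 fold change was 0.57. On the whole of chromosome 16, 244 of 570 protein-coding genes tested rose and 111 fell, with a median of 0.17. MVD, next to CYBA and an enzyme of cholesterol synthesis, rose from 21.9 and 21.9 CPM to 31.4 and 33.4 CPM (log2 fold change 0.57, SE 0.107, edgeR adjusted p = 3.09e-06). On the other side, IL17C had no counts, and ZC3H18, an RNA processing factor, rose from 83.4 ± 4.38 to 169 ± 13.9 CPM. SNAI3, beyond MVD, was under the filter, with 0.295 ± 0.133 CPM in WT and 0.447 ± 0.146 CPM in TMEM9 KD.

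Other neighbours that rose at least 2-fold were KLHDC4, from 13.3 ± 0.222 to 28 ± 0.24 CPM, and CTU2, a factor of transfer RNA thiolation, from 20 ± 1 to 41.9 ± 2.28 CPM. ZFPM1 was the gene tested that did not pass, at 8.52 ± 1.19 and 7.17 ± 0.47 CPM (edgeR adjusted p = 0.249). The calls of RNF166 and GALNS, both near 0.3 on the log2 scale, ended without either WT library. They ended also with the DESeq2 test (adjusted p = 0.174 and 0.0586). That of RNF166 ended further with DESeq2 size factors (edgeR adjusted p = 0.0501) and without a low-count filter (0.0825). Without TMEM9 KD replicate 2 the log2 fold change of RNF166 was 0.133. CYBA thus differed in sign from every called neighbour. A shift shared by the region is given here as a value, and its part in the levels of CYBA was not tested.

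**Figure D4:**
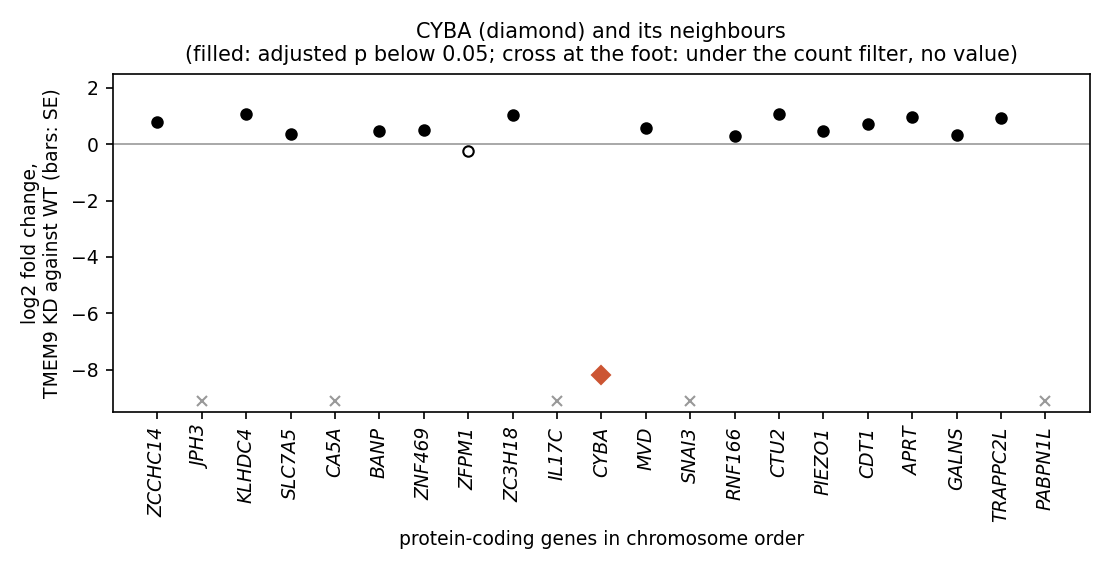
Log2 fold change of TMEM9 KD against WT (y axis, with SE bars) for CYBA (diamond) and the 10 protein-coding genes on each side in chromosome order, with crosses at the foot for genes under the count filter. CYBA lies at -8.17 and the called neighbours between 0.29 and 1.07.

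The genes nearest to CYBA in pattern over the 4 libraries were CXCL10, CXCL11, CSF3, GJB2 and MIR205HG, at distances of 0.125 to 0.492 log2 units. Distance was taken between log2 CPM with a prior count of 2 added, centred on each gene's mean. CXCL10, an interferon-induced chemokine, had 35.8 and 32.4 CPM in WT against 0.122 and 0.0573 CPM in TMEM9 KD. The chemokine gene CXCL11 had 51.4 and 53.4 against 0.305 and 0.115 CPM, and CSF3, a growth factor of neutrophils, 80.8 and 78 against 0.244 and 0.229 CPM. GJB2, a gap junction gene, and MIR205HG, a microRNA host gene, had 0 counts in both TMEM9 KD libraries. With 4 libraries in 2 groups, this likeness is mainly that of the size of the difference between groups. The prior count sets the low end in TMEM9 KD. GJB2 and MIR205HG thus lie near CYBA although their fitted log2 fold changes were each -11.8, against -8.17 for CYBA.

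CYBA, CYBB and RAC2 are also known from phagocytes, so markers of those cells were read beside them. Of 13 phagocyte markers, 5 passed the filter, and of these 4 fell and 1 rose, where 29% and 28.7% of all genes tested did. Their summed level over all 13 was 41.5 to 50.8 CPM in WT and 8.65 to 8.98 CPM in TMEM9 KD, most of it LAPTM5 in WT (27.7 and 35.4 CPM, against 0.55 and 0.917 CPM in TMEM9 KD). CD14, a receptor for lipopolysaccharide, fell from 7.28 ± 1.5 to 1.2 ± 0.657 CPM, and PTPRC, the common leukocyte antigen, rose from 2.53 ± 0.359 to 4.2 ± 0.274 CPM. CSF1R and ITGB2 each had a log2 fold change of -1.03. Among the 8 markers under the filter, SPI1, TYROBP, LYZ, CD68 and MPO had 0 counts in both WT libraries, while ELANE had 5 and 3, ITGAM 3 and 1, and FCER1G 1 and 2. The part of phagocyte markers in the levels of CYBA, CYBB and RAC2 was not tested. Fibroblasts are a known source of NOX4. Of 7 fibroblast markers 6 were tested, of which 4 rose and 2 fell (28.7% and 29% of all genes tested). Summed levels were 1119 to 1135 CPM in WT and 1507 to 1671 CPM in TMEM9 KD. Most of this was COL1A1, at 824 ± 11.9 and 1387 ± 123 CPM. PDGFRA fell from 244 ± 0.158 to 147 ± 7.24 CPM and PDGFRB from 52.2 ± 1.88 to 43 ± 1.32 CPM. LUM, with 0 and 2 counts in WT and 28 and 21 in TMEM9 KD, passed the filter only through TMEM9 KD. COL1A2, under the filter, had 9 and 16 counts in WT and 2 and 1 in TMEM9 KD. The part of these genes in the counts of NOX4 was not tested.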

How the data were processed

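RNA was extracted by silica column and made into Illumina libraries, per the labels' protocols. The authors deposited raw counts per Ensembl gene for 4 libraries (15323843 to 18517337 counts). Per the submitters' processing notes, Bowtie 0.12.2 and CASAVA were used, with hg19 and mm8 listed as builds without roles, and the sources used here do not name the counting tool. Symbols were found for 45342 genes. GENCODE 29, whose build differs from hg19, gave exon lengths, overlaps, gene types, chromosomes, gene order and the symbols of 304 genes. The counts were tested with edgeR 4.0.16 in R 4.3.3 (glmQLFTest, quasi-likelihood), with TMM factors, filterByExpr (minimum count 10, minimum total 15), group as the only term, and Benjamini-Hochberg adjustment over 14923 genes at a threshold of 0.05. The fit was tested on simulated data in which far fewer genes changed than were called here, so that test does not cover so broad a difference. Exact 95% intervals cover counting error only, and the p-values reflect only how far these libraries differ, which may be technical variation. Chi-square over degrees of freedom was 2.04 between WT libraries and 4.82 between TMEM9 KD libraries, so each was kept as a replicate. Members and lists were chosen with earlier results of these data known. Genes named were all members, called partners, up to 4 called genes per list with the largest change, genes on which a small count or a lost call turned, the 2 nearest neighbours of CYBA on each side and those changed by 2-fold, and the 5 genes nearest in pattern. Other genes of the lists, such as RAC1, HVCN1, GPX1 and PRDX1, were named after their values were seen. Some genes of the lists are counted but their values are not reported here. Alternatives were other scalings (DESeq2 size factors, upper quartile, library size), other filters (none, a mean of 5 CPM), DESeq2 1.42.0, limma voom 3.58.1, the replicate number as a block, and each library left out in turn.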

Additional observations from a re-analysis of the deposited data

How the results depend on the processing

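Among the members, the pathway lists and the neighbours of CYBA, 0 called changes reversed under the alternatives run. The log2 fold change of CYBA was -8.51 to -7.88 when a library was left out, as its TMEM9 KD level rests on 5 counts. The count of genes called for superoxide and peroxide removal was 11, and 7 with library size as the only scaling. It was 7 to 15 when a library was left out. The other counts of calls stayed within 1.5 times. Called over all genes were 8618, and 6622 to 8578 when a library was left out. Same-numbered libraries did not deviate together (correlation of deviations across genes 0.000474), so the numbers were not taken as pairs. With the replicate block 8437 genes were called, 9 of them partner genes, and 0 calls of the genes in these lists were lost or gained. Depth limits CYBB, NOX4, NOXO1 and DUOX2, which had at most 10 counts in a library.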
